A study of Drosophila melanogaster with 8 samples.

Results

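The response to cyclic di-GMP (c-di-GMP) that both RNAi arms of the experiment shared was measured by setting all 4 samples transfected with c-di-GMP against all 4 mock-transfected samples, with the dsRNA given beforehand held as a factor. Membership followed the sample titles, so the comparison used all 8 samples of the series and the 11009 genes that had at least 1 probe set naming a single gene. Drosophila melanogaster S2 cells, an established embryonic line with macrophage-like properties, first received dsRNA with the lipid reagent CellfectinII. After 72 h the cells were transfected with c-di-GMP or with Cellfectin and no dinucleotide, and RNA was taken 24 h later. The 4 groups of 2 samples each were DmSTING RNAi with c-di-GMP, scrambled RNAi with c-di-GMP, DmSTING RNAi with mock, and scrambled RNAi with mock. All 8 samples had therefore been through 2 lipid transfections and carried some dsRNA, and the mock samples control for the lipid. The titles and the genotype field disagree for 4 samples, where the genotype field follows the second treatment and not the dsRNA. The groups here follow the titles. The labels do not tell whether the 2 replicates of a group came from different cultures, and a p-value here weighs only the scatter of these samples, perhaps a technical one. The dose of c-di-GMP is not given in the sources used here.

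Cyclic di-GMP is a second messenger that bacteria make and animal cells do not. In animal cells cyclic dinucleotides are bound by STING, a membrane protein of the endoplasmic reticulum. In Drosophila, Sting acts through the kinase IKKbeta and the NF-kappaB factor Relish to raise antiviral and antimicrobial genes. Relish is also the output of the IMD pathway, which is set off when peptidoglycan recognition proteins bind bacterial cell wall and which raises antimicrobial peptides in fat body and blood cells. Growth in fly cells is set largely by the TOR kinase, which favours the making of ribosomes in the nucleolus and restrains autophagy and the transcription factors FOXO and REPTOR.

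Each value below is a log2 value relative to the median of its probe set over the 8 samples, averaged over the probe sets of a gene, so it shows which samples were high or low and holds no expression level. The markers of the S2 cell type could for this reason be checked for change only, not for presence. A gene was called when its limma p-value, adjusted over all 11009 genes by the Benjamini-Hochberg method, was under 0.05. Sting, the targeted gene, had values of -0.84 and -0.75 in the DmSTING and 0.57 and 0.46 in the scrambled c-di-GMP samples, against -0.48 and -0.46 in the DmSTING and 0.81 and 0.83 in the scrambled mock samples. All 4 samples labelled DmSTING RNAi lay below all 4 labelled scrambled RNAi, as the titles have it. The first principal component, with 49.4% of the variance, set the c-di-GMP samples (6.55 to 16.5) apart from the mock samples (-12.2 to -10.7). Replicates differed more in the c-di-GMP groups, where the SD of their difference over genes was 0.196 with DmSTING dsRNA and 0.233 with scrambled dsRNA, than in the mock groups, where it was 0.119 with DmSTING dsRNA and 0.166 with scrambled dsRNA. The library labelled DmSTING RNAi c-di-GMP replicate 1 stands apart for antimicrobial and other immune genes, at or below the mock samples where the other 3 c-di-GMP samples were high, and the antimicrobial peptide and IMD results are given with and without it. It was singled out for its low values in these same genes, so larger changes without it follow from that choice. The DmSTING c-di-GMP group then rests on 1 array.

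Transfected c-di-GMP changed a large share of the measured genes, mostly by less than 2-fold. Of 11009 genes 2303 were called (20.9%), 842 higher (7.65%) and 1461 lower (13.3%). The median size of the log2 change among called genes was 0.32. At least 2-fold changes were found for 12 called genes higher and 21 lower, and at least 1.5-fold changes for 96 higher and 151 lower. The treatment took 47.5% of the sum of squares over genes, the dsRNA 12.1%, their interaction 7.88% and the differences between replicates 32.5%. The 4 c-di-GMP samples lay wholly above the 4 mock samples for 1069 genes (9.71%) and wholly below them for 1695 (15.4%). Of the 2303 called genes, 2045 had groups that did not overlap, a count favoured by calling on the same values. Leaving out either mock sample of the DmSTING arm lowered the count of calls most, to 1189 without replicate 1 (437 higher, 752 lower) and 1161 without replicate 2 (422 higher, 739 lower). Without scrambled mock replicate 2 the genes called lower numbered 951. In bulk RNA a fall in a transcript through fewer cells of a kind and through less RNA per cell cannot be told apart.

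**Figure D1:**
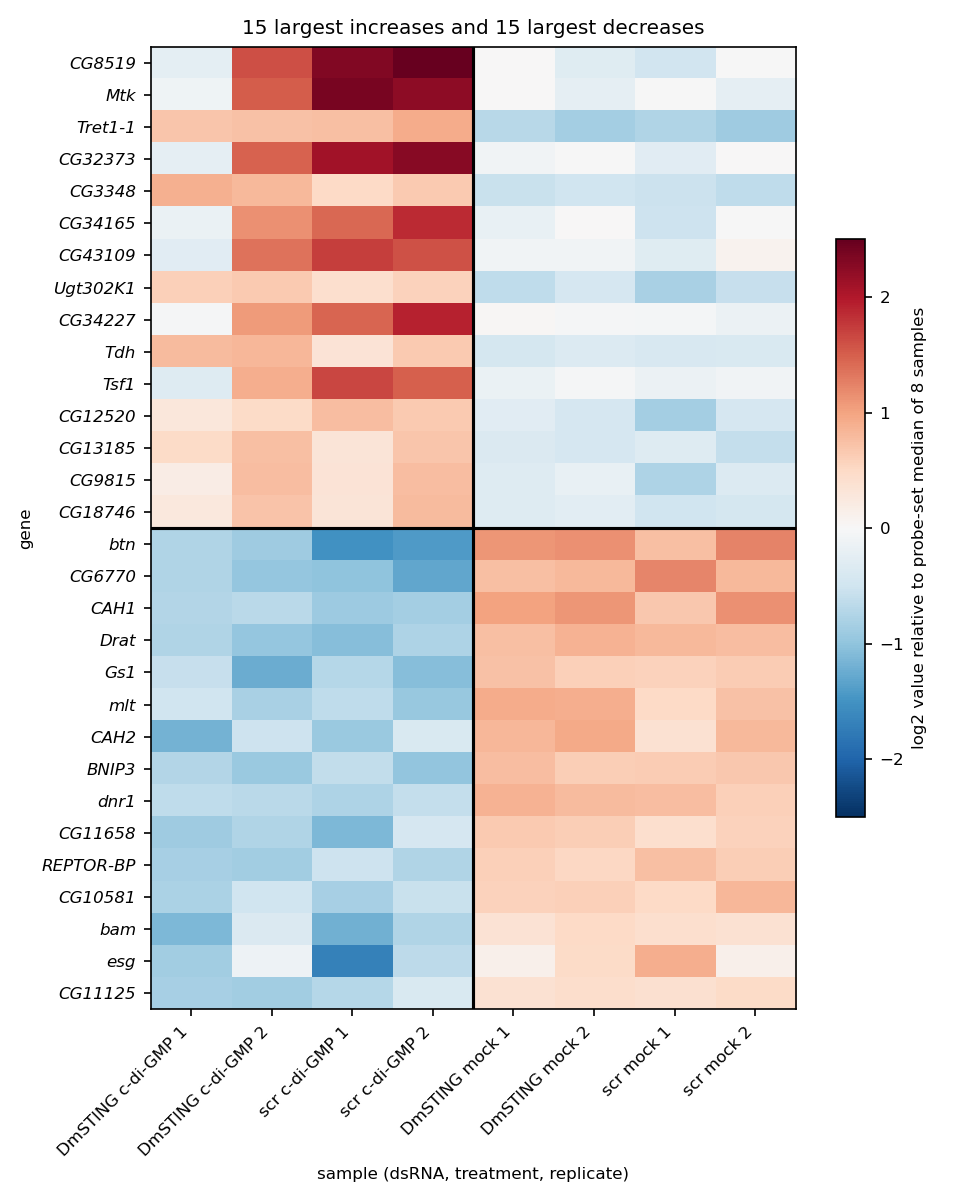
Values of the 15 called genes with the largest increases (upper block) and the 15 with the largest decreases (lower block) in each sample, as log2 relative to the probe-set median of the 8 samples, with c-di-GMP samples left of the line and mock samples right of it ("scr" is scrambled dsRNA). In the lower block every c-di-GMP sample lies below every mock sample for all 15 genes, while in the upper block 7 of 15 genes overlap, with DmSTING c-di-GMP replicate 1 near the mock samples.

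Of the 15 largest increases 8 had c-di-GMP and mock samples that did not overlap, and 5 of these 8 have no name beyond a CG number. Tret1-1, which carries trehalose, the main blood sugar of insects, across cell membranes, had values of 0.69 and 0.72 with DmSTING dsRNA and 0.76 and 0.93 with scrambled dsRNA in the c-di-GMP samples, against -0.69 and -0.84 with DmSTING dsRNA and -0.75 and -0.89 with scrambled dsRNA in the mock samples. All 4 c-di-GMP samples were high and the groups did not overlap, with a log2 change of 1.57 (SE 0.067, adjusted p = 0.000177), or 2.97-fold. CG3348 had values of 0.89 and 0.82 (DmSTING RNAi) and 0.51 and 0.66 (scrambled RNAi) with c-di-GMP, against -0.56 and -0.51 (DmSTING RNAi) and -0.53 and -0.64 (scrambled RNAi) in mock cells, a log2 change of 1.28 (SE 0.058, adjusted p = 0.000177). Its c-di-GMP samples lay more than 1 log2 unit above its mock samples on average (2.43-fold). Ugt302K1, a UDP-glycosyltransferase of the family that attaches sugars to small lipophilic molecules, had values of 0.60 and 0.66 in the DmSTING and 0.43 and 0.58 in the scrambled c-di-GMP samples, against -0.64 and -0.43 in the DmSTING and -0.81 and -0.58 in the scrambled mock samples. Its increase was 2.27-fold (SE 0.079 in log2, adjusted p = 0.000426), without overlap. Tdh, named for threonine dehydrogenase, had values of 0.79 and 0.83 (DmSTING RNAi) and 0.35 and 0.65 (scrambled RNAi) with c-di-GMP, against -0.44 and -0.35 (DmSTING RNAi) and -0.40 and -0.38 (scrambled RNAi) in mock cells. The 2 DmSTING c-di-GMP samples were its highest, and the change was 2.06-fold (log2 change 1.05, SE 0.072, adjusted p = 0.000426). Hex-A, the hexokinase that commits glucose to glycolysis, was outside the 15 and rose 1.86-fold, with values of 0.52 and 0.35 in the DmSTING and 0.52 and 0.56 in the scrambled c-di-GMP samples, against -0.37 and -0.47 in the DmSTING and -0.35 and -0.43 in the scrambled mock samples. CG12520, CG9815 and CG18746 were also among the 15 largest increases with groups apart, at log2 changes of 1.04, 0.93 and 0.90. The 3 genes with the highest moderated t beside Tret1-1 and CG3348 were SCaMC, which encodes a calcium-regulated carrier of the mitochondrial membrane, bor and pths, at 0.81, 0.78 and 0.80, and their c-di-GMP samples spanned narrow ranges, from 0.37 to 0.41 for SCaMC.

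A second set of increases was large in 3 of the 4 c-di-GMP samples and absent in the fourth. Metchnikowin (Mtk), an antifungal and antibacterial peptide raised by NF-kappaB factors, had values of -0.098 and 1.50 with DmSTING dsRNA and 2.37 and 2.24 with scrambled dsRNA in the c-di-GMP samples, against 0.0090 and -0.22 with DmSTING dsRNA and -0.0090 and -0.22 with scrambled dsRNA in the mock samples. Only DmSTING c-di-GMP replicate 1 was at the level of the mock samples, so that the groups overlapped. The change was 3.06-fold (log2 change 1.61, SE 0.307, adjusted p = 0.0106), and without that library 2.01 in log2. CG8519, the largest increase of all, had values of -0.25 and 1.61 in the DmSTING and 2.31 and 2.51 in the scrambled c-di-GMP samples, against 0.0017 and -0.30 in the DmSTING and -0.49 and -0.0017 in the scrambled mock samples. The same 3 c-di-GMP samples were high as for Mtk, and its log2 change of 1.74 (adjusted p = 0.0157) was 2.21 without DmSTING c-di-GMP replicate 1. Tsf1, a secreted transferrin that binds iron, had values of -0.33 and 0.90 (DmSTING RNAi) and 1.68 and 1.49 (scrambled RNAi) with c-di-GMP, against -0.16 and -0.030 (DmSTING RNAi) and -0.15 and -0.096 (scrambled RNAi) in mock cells, with a mean change of 1.05 (adjusted p = 0.0205) that was 1.35 without that library. Its 2 probe sets differed in size, at 1.47 and 0.62. CG32373 (1.50), CG34165 (1.24), CG43109 (1.20) and CG34227 (1.14) completed the 7 of the 15 largest increases whose groups overlapped. Leaving out DmSTING c-di-GMP replicate 1 raised all 7 estimates, to log2 changes of 1.93, 1.57, 1.61 and 1.42 for these 4. In what follows samples left out are given by group and replicate number, and the alternatives counted are the 16 other settings of the fit that measured the gene. Leaving out 1 sample ended the call of CG8519 (without DmSTING mock 2 or scrambled mock 1, adjusted p up to 0.0616), CG32373 (without any mock sample, adjusted p up to 0.0654), CG34165 (without either DmSTING mock sample or scrambled mock 1, adjusted p up to 0.0729), CG43109 (in all fits but those without either DmSTING c-di-GMP sample, adjusted p up to 0.114), CG34227 (without DmSTING mock 2 or scrambled mock 2, adjusted p up to 0.0517) and Tsf1 (without any mock sample, adjusted p up to 0.0737). CG43109 was also lost under quantile normalization, so that its call held in 9 of 16 alternatives. Mtk was called with each of the 8 samples left out in turn.

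**Figure D2:**
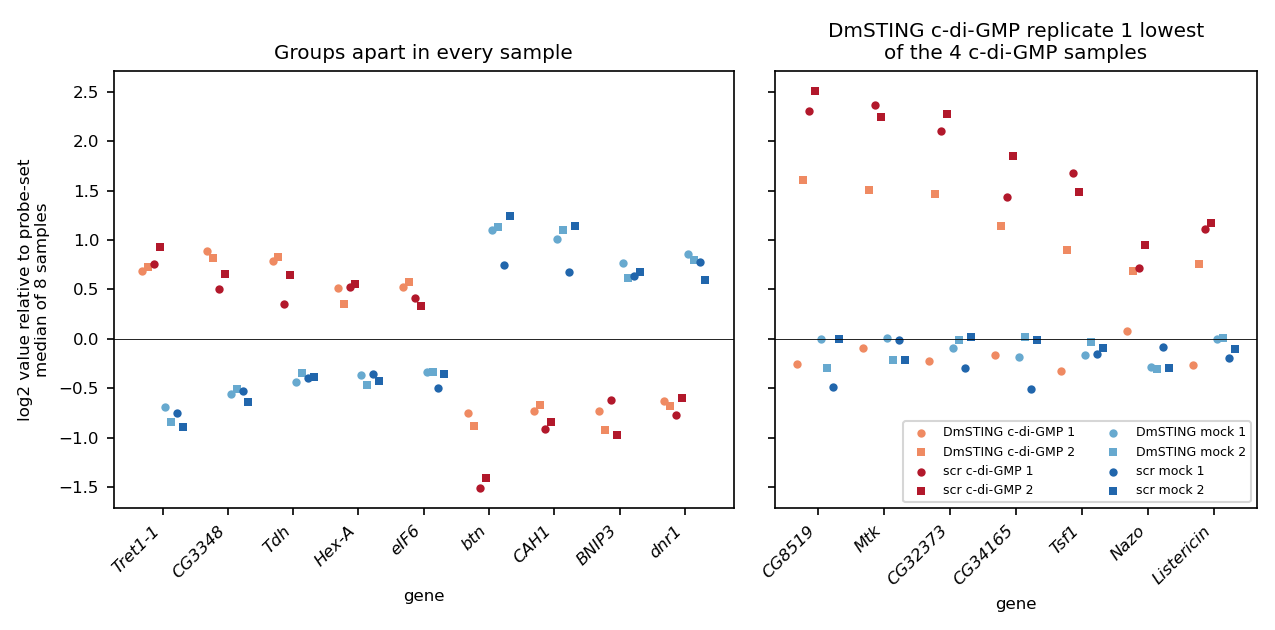
Log2 values relative to the probe-set median of the 8 samples for 9 genes whose c-di-GMP and mock samples did not overlap (left) and 7 genes whose lowest c-di-GMP sample was DmSTING c-di-GMP replicate 1 (right), each point 1 sample. On the right the other 3 c-di-GMP samples lie high, while replicate 1 of the DmSTING arm lies at or below the highest mock sample for every gene but Nazo, where it is just above the mock samples.

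The largest decreases were more even, and for all 15 the c-di-GMP and mock samples did not overlap. Buttonless (btn), a homeodomain transcription factor, had values of -0.75 and -0.89 with DmSTING dsRNA and -1.52 and -1.41 with scrambled dsRNA in the c-di-GMP samples, against 1.10 and 1.14 with DmSTING dsRNA and 0.75 and 1.25 with scrambled dsRNA in the mock samples. It fell to 21.8% of mock (log2 change -2.20, SE 0.106, adjusted p = 0.000207). CAH1 and CAH2, carbonic anhydrases that interconvert carbon dioxide and bicarbonate, fell to 29.2% and 35.7% of mock. CAH1 had values of -0.73 and -0.68 in the DmSTING and -0.91 and -0.84 in the scrambled c-di-GMP samples, against 1.01 and 1.11 in the DmSTING and 0.68 and 1.14 in the scrambled mock samples, with a log2 change of -1.77 (SE 0.100, adjusted p = 0.000316). Of the other 11 carbonic anhydrases measured only CAH7 was called, at -0.23. Calls lost with 1 sample left out were those of CAH7 (in all fits but those without DmSTING c-di-GMP 1 or scrambled c-di-GMP 2, adjusted p up to 0.126). CAH7 was also lost under quantile normalization, so that its call held in 9 of 16 alternatives. CG6770 had values of -0.76 and -0.97 (DmSTING RNAi) and -1.01 and -1.29 (scrambled RNAi) with c-di-GMP, against 0.76 and 0.82 (DmSTING RNAi) and 1.22 and 0.81 (scrambled RNAi) in mock cells, and fell to 26.6% of mock (adjusted p = 0.000316). Drat (-1.69), mlt (-1.49), CG11658 (-1.37), CG10581 (-1.29) and CG11125 (-1.12) fell likewise in all 4 c-di-GMP samples. Drat and mlt rest on probe sets of the kind whose IDs end in s_at, which can match related transcripts, and so does glutamine synthetase 1 (Gs1, -1.53). The stem cell and lineage factors bam, which drives germ cells into differentiation, and esg, a Snail-family factor, had log2 changes of -1.26 and -1.24. Replicates of esg were far apart, with values of -0.86 and -0.12 in the DmSTING and -1.69 and -0.65 in the scrambled c-di-GMP samples, against 0.13 and 0.48 in the DmSTING and 0.91 and 0.12 in the scrambled mock samples. Its adjusted p of 0.0225 was 0.0769 without scrambled mock replicate 1, 0.0563 without DmSTING mock replicate 1, 0.0841 without DmSTING mock replicate 2 and 0.0688 without DmSTING c-di-GMP replicate 1.

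Of the 45 gene lists, nucleolar ribosome biogenesis had the largest share of called genes (93.5%, beside 20.9% over all genes). Its members are the factors that copy, trim and fold ribosomal RNA before subunits leave the nucleus. Of 46 measured genes 42 were called higher and 1 lower, with a median log2 change of 0.54 beside -0.027 over all genes. The median of the list was 0.27 and 0.32 in the DmSTING and 0.20 and 0.25 in the scrambled c-di-GMP samples, against -0.25 and -0.22 in the DmSTING and -0.24 and -0.24 in the scrambled mock samples. All 6 box C/D and H/ACA snoRNP proteins were called higher, among them the methyltransferase fibrillarin (Fib, 0.59), its partner Nop56 (0.57), and the pseudouridine synthase Nop60B (0.65). Fib had values of 0.40 and 0.45 (DmSTING RNAi) and 0.19 and 0.19 (scrambled RNAi) with c-di-GMP, against -0.24 and -0.19 (DmSTING RNAi) and -0.43 and -0.26 (scrambled RNAi) in mock cells, 1.50-fold. Of the 17 small subunit processome members 16 were called higher, with Mat89Ba (0.81), l(1)G0020 (0.72) and kz (0.55) as examples. Of the 19 genes of large subunit assembly and export 16 were called higher and 1 lower. CG13185 (0.99) and eIF6, which keeps the subunits apart until the large one is mature, changed most. eIF6 had values of 0.52 and 0.57 in the DmSTING and 0.41 and 0.34 in the scrambled c-di-GMP samples, against -0.34 and -0.34 in the DmSTING and -0.49 and -0.35 in the scrambled mock samples, and rose 1.79-fold (adjusted p = 0.000406). Non1, a nucleolar GTPase, was the 1 member called lower (-0.41, adjusted p = 0.00242). With 1 sample left out at a time between 39 and 42 members were called higher.

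Subunits of RNA polymerase I, which transcribes the ribosomal RNA precursor, were among the genes that rose. Polr1A (0.51), Polr1B (0.48), Polr1C (0.68), Polr1E (0.46), Polr1F (0.48) and Polr1H (0.52) were all called, and of the RNA polymerase I and III subunits together 8 of 14 measured genes were called higher and 0 lower (57.1% called, median log2 change 0.25). Polr1C had values of 0.40 and 0.40 with DmSTING dsRNA and 0.28 and 0.27 with scrambled dsRNA in the c-di-GMP samples, against -0.32 and -0.27 with DmSTING dsRNA and -0.39 and -0.41 with scrambled dsRNA in the mock samples, with no overlap and a log2 change of 0.68 (SE 0.044, adjusted p = 0.000426). Of the proteins of the finished cytosolic ribosome few were called. Among them 1 of 34 measured genes were called higher and 2 lower (8.82% called, median log2 change -0.049), a share of 8.82% against 20.9% over all genes. RpS7 was the 1 gene called higher (0.22), and its 2 probe sets read 0.48 and -0.03. Mitochondrial ribosomal proteins shifted by less, where 20 of 69 measured genes were called higher and 1 lower (30.4% called, median log2 change 0.11). The changes of mRpL52 (0.35) and mRpL30 (0.33) were the largest. Among aminoacyl-tRNA synthetases, which charge tRNAs, 12 of 32 measured genes were called higher and 1 lower (40.6% called, median log2 change 0.092). The cytosolic enzymes LeuRS (0.50) and ValRS (0.39) were among those higher and TyrRS (-0.33) was the 1 lower. Translation initiation factors split, and 10 of 39 measured genes were called higher and 2 lower (30.8% called, median log2 change -0.0015). Beside eIF6, eIF2Bgamma, a subunit of the factor that recharges eIF2 with GTP, rose (0.36), while eIF3l fell (-0.32). With 1 sample left out at a time, the counts were 5 to 17 higher (fewest without either DmSTING mock sample) for mitochondrial ribosomal proteins, 5 to 12 higher (fewest without DmSTING mock 1 or scrambled mock 1) for aminoacyl-tRNA synthetases, 5 to 10 higher (fewest without DmSTING mock 2) and 1 to 3 lower (fewest without DmSTING c-di-GMP 2, DmSTING mock 2 or scrambled mock 2) for translation initiation factors, 0 to 3 lower (fewest without DmSTING c-di-GMP 1, either DmSTING mock sample or scrambled mock 2) for cytosolic ribosomal proteins. Not called with 1 sample left out were RpS7 (in all fits but those without scrambled c-di-GMP 2, adjusted p up to 0.119).

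**Figure D3:**
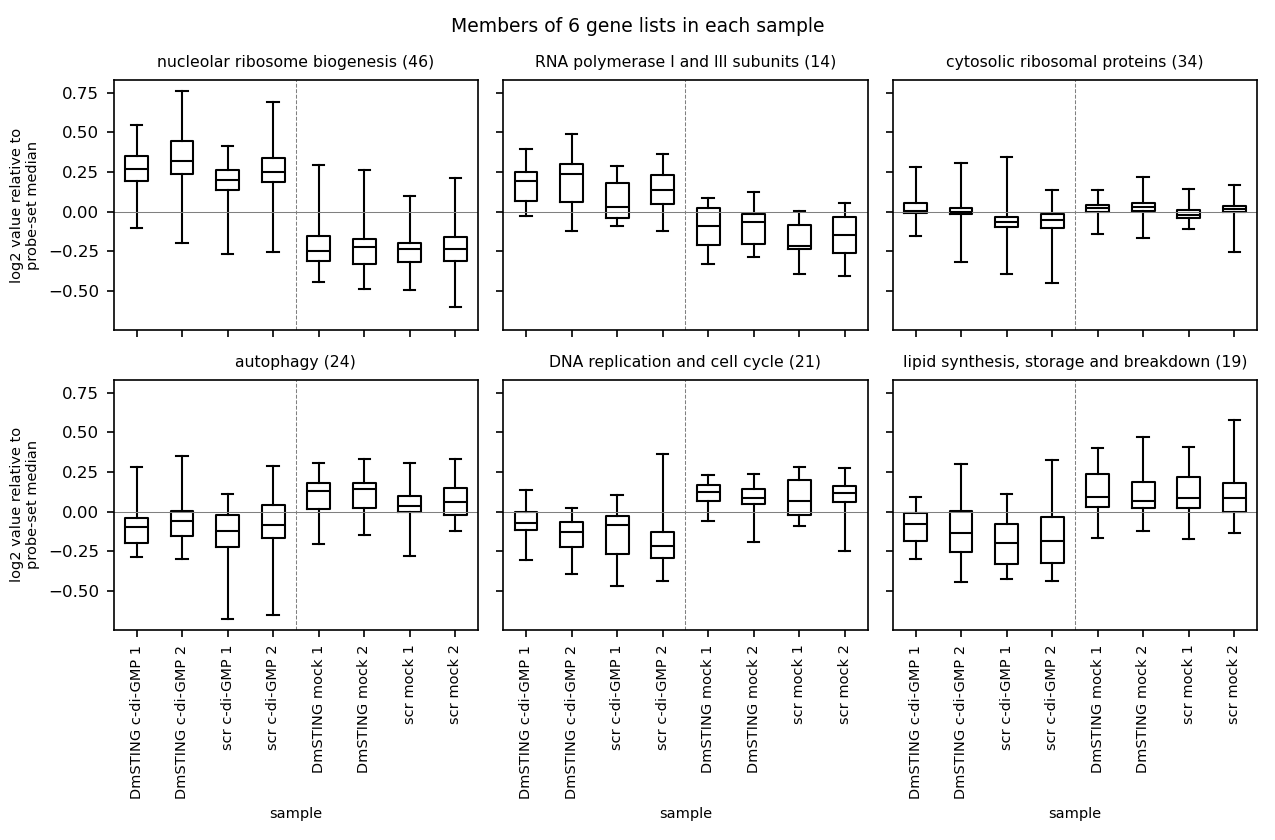
Values of all measured members of 6 gene lists in each sample (boxes, quartiles and median; whiskers, lowest and highest member), as log2 relative to the probe-set median, with c-di-GMP samples left of the dashed line and mock samples right of it. The medians of the nucleolar list lie above 0 in every c-di-GMP sample and below 0 in every mock sample, those of cytosolic ribosomal proteins stay near 0, and the medians of the 3 lower lists lie below 0 in every c-di-GMP sample.

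Sugar uptake and amino acid genes were called in both directions. Of 12 trehalose and sugar transport genes, 4 were called higher and 2 lower (median log2 change 0.11), 50% called beside 20.9% over all genes. Beside Tret1-1, trehalase (Treh), which splits trehalose into glucose, rose 1.55-fold with values of 0.26 and 0.29 (DmSTING RNAi) and 0.30 and 0.36 (scrambled RNAi) with c-di-GMP, against -0.32 and -0.26 (DmSTING RNAi) and -0.43 and -0.29 (scrambled RNAi) in mock cells, and Tret1-2 rose by less (0.29). CG1213 fell (-0.52). In glycolysis only Hex-A and Tpi (0.25), triose phosphate isomerase, were called among 11 genes (18.2%), both higher, and the list's median was 0.053. In amino acid and one-carbon metabolism, 4 of 27 measured genes were called higher and 6 lower (37.0% called, median log2 change -0.063). Against the increases of Tdh and Nmdmc (0.41), a mitochondrial folate enzyme, stood the decreases of Gs1 (-1.53), CG11899 (-0.55) and Adi1 (-0.45). Gs1 had values of -0.58 and -1.23 in the DmSTING and -0.71 and -1.06 in the scrambled c-di-GMP samples, against 0.73 and 0.59 in the DmSTING and 0.58 and 0.64 in the scrambled mock samples, wholly apart. Of 14 purine and pyrimidine synthesis genes 4 were called higher, with r-l, which makes uridine monophosphate, the largest (0.43), and su(r), which breaks pyrimidines down, was called lower (-0.39). The list's median was 0.062, with 35.7% called. The fits that left out 1 sample each gave 1 to 2 lower (fewest without DmSTING c-di-GMP 2, scrambled c-di-GMP 1 or any mock sample) for trehalose and sugar transport, 1 to 3 higher (fewest without DmSTING c-di-GMP 1, either DmSTING mock sample or scrambled mock 1) for glycolysis and lactate, 2 to 4 higher (fewest without DmSTING c-di-GMP 1, either DmSTING mock sample or scrambled mock 1) for amino acid and one-carbon metabolism, 1 to 4 higher (fewest without DmSTING c-di-GMP 2, either DmSTING mock sample or scrambled mock 2) for purine and pyrimidine synthesis. Leaving out 1 sample ended the call of Tpi (without DmSTING c-di-GMP 1, either DmSTING mock sample or scrambled mock 1, adjusted p up to 0.0843).

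Of 19 lipid genes 9 were called lower and 0 higher (median -0.23), against 13.3% called lower over all genes. They cover both directions of the pathway. Fatty acid synthase FASN1 (-0.55), acetyl-CoA carboxylase ACC (-0.36) and acetyl-CoA synthetase AcCoAS (-0.60) make fatty acids, mdy (-0.39) and Lpin (-0.44) make stored fat, Lsd-1 (-0.76) coats lipid droplets, and bmm (-0.53) is a lipase that empties them. FASN1 had values of -0.23 and -0.27 with DmSTING dsRNA and -0.33 and -0.26 with scrambled dsRNA in the c-di-GMP samples, against 0.33 and 0.29 with DmSTING dsRNA and 0.27 and 0.23 with scrambled dsRNA in the mock samples, and every c-di-GMP sample was lower. None of the 3 fatty acid oxidation genes was called. In autophagy, which delivers cytoplasm to lysosomes, 12 of 24 genes were called lower and 1 higher (median -0.22), 54.2% called in all. Atg9, the membrane-spanning member, had values of -0.094 and -0.049 in the DmSTING and -0.49 and -0.53 in the scrambled c-di-GMP samples, against 0.31 and 0.33 in the DmSTING and 0.049 and 0.15 in the scrambled mock samples, a log2 change of -0.50 (SE 0.048, adjusted p = 0.000903). Atg8a, the ubiquitin-like protein joined to the growing membrane, had values of -0.22 and -0.30 (DmSTING RNAi) and -0.19 and -0.22 (scrambled RNAi) with c-di-GMP, against 0.19 and 0.21 (DmSTING RNAi) and 0.25 and 0.26 (scrambled RNAi) in mock cells and fell to 72.8% of mock. Atg17 (-0.49), Atg18a (-0.45) and Atg7 (-0.42) fell as well, and Atg16 was the 1 member called higher (0.18). Between 9 and 14 autophagy genes were called lower with 1 sample left out. Of 31 vacuolar ATPase subunits, which acidify lysosomes, 6 were called lower and 0 higher (median -0.085), a share of 19.4% called beside 20.9% over all genes. The largest decreases there were Vha68-3 (-0.89) and Vha100-4 (-0.54). Counts with 1 sample left out were 1 to 6 lower (fewest without DmSTING mock 2 or scrambled mock 2) for vacuolar ATPase subunits. Calls lost with 1 sample left out were those of Atg16 (in all fits but those without DmSTING c-di-GMP 1, adjusted p up to 0.135), Vha68-3 (without DmSTING mock 2 or scrambled mock 2, adjusted p up to 0.0593) and Vha100-4 (without DmSTING c-di-GMP 1 or either scrambled mock sample, adjusted p up to 0.0589).

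Among 19 insulin, TOR and FOXO/REPTOR regulators 2 were called higher and 3 lower (median -0.090), a share of 26.3% called, not far from the 20.9% over all genes. REPTOR-BP, the bZIP partner of REPTOR, had values of -0.83 and -0.87 with DmSTING dsRNA and -0.51 and -0.76 with scrambled dsRNA in the c-di-GMP samples, against 0.61 and 0.51 with DmSTING dsRNA and 0.75 and 0.61 with scrambled dsRNA in the mock samples. It fell to 39.0% of mock without overlap (adjusted p = 0.000292), whereas REPTOR itself had a log2 change of -0.19 and foxo of -0.26, neither called. The 2 genes that rose are inhibitors of growth signalling, scyl (0.74), an inhibitor of TOR, and ImpL2 (0.41), a secreted protein that binds insulin-like peptides. Sesn (-0.27), another inhibitor of TOR, and chico (-0.22), the insulin receptor substrate, fell. In the hypoxia and mitophagy list, 2 of 7 measured genes were called higher and 3 lower (71.4% called beside 20.9% over all genes, median log2 change -0.097). The mitophagy receptor BNIP3 had values of -0.73 and -0.92 in the DmSTING and -0.62 and -0.98 in the scrambled c-di-GMP samples, against 0.76 and 0.62 in the DmSTING and 0.64 and 0.67 in the scrambled mock samples, and fell to 35.7% of mock (log2 change -1.49, SE 0.091, adjusted p = 0.000352), and Pink1, the kinase that marks damaged mitochondria, fell (-0.47). The oxygen sensor Hph rose (0.44), as did the hypoxia factor sima (0.26). With 1 sample left out at a time, the counts were 1 to 5 lower (fewest without DmSTING mock 1 and most without scrambled c-di-GMP 2 or scrambled mock 2) for insulin, TOR and FOXO/REPTOR regulators, 1 to 2 higher (fewest without DmSTING c-di-GMP 2, DmSTING mock 2 or scrambled mock 2) for hypoxia response and mitophagy. Not called with 1 sample left out were Sesn (without DmSTING mock 1, adjusted p = 0.0643), chico (without DmSTING c-di-GMP 2, either DmSTING mock sample or scrambled mock 1, adjusted p up to 0.0889) and sima (without DmSTING c-di-GMP 2, DmSTING mock 2 or scrambled mock 2, adjusted p up to 0.0737).

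Of 21 DNA replication and cell cycle genes 13 were called lower and 0 higher (median -0.23), a share of 61.9% beside 13.3% called lower over all genes. Of the 11 licensing genes, which load the replicative helicase onto origins, 8 were called lower, including Mcm2 (-0.44), Mcm5 (-0.35), Orc1 (-0.33) and Orc5 (-0.43). Mcm2 had values of -0.20 and -0.23 (DmSTING RNAi) and -0.22 and -0.24 (scrambled RNAi) with c-di-GMP, against 0.23 and 0.20 (DmSTING RNAi) and 0.22 and 0.21 (scrambled RNAi) in mock cells. It fell to 73.9% of mock (adjusted p = 0.00105). Of the 10 S phase and mitosis genes 5 were called lower, with the kinase Cdk2 (-0.51) the largest. PCNA (-0.11) and RnrL (-0.066) were not called. The fits that left out 1 sample each gave 6 to 14 lower (fewest without either DmSTING mock sample) for DNA replication and cell cycle.

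Stress response genes were called in both directions, and 20.9% of all genes were called. The share called was 54.5% for heat shock proteins and co-chaperones, 37.5% for apoptosis and 35.7% for peroxide defence and redox control. It was below that over all genes for the unfolded protein response (17.6%), the JNK pathway and TNF (16.7%) and the proteasome (8.11%). Among 11 heat shock proteins and co-chaperones 4 were called lower and 2 higher (median -0.024). The inducible chaperones Hsp68 (-0.71), Hsp26 (-0.60) and Hsp27 (-0.57) and the co-chaperone stv (-0.62) fell, and mitochondrial Hsp60A (0.41) and Hsp110 (0.28) rose. Hsp60A and Hsp110 rest on probe sets with IDs ending in s_at or x_at. With such probe sets left out, 0 of the 6 heat shock genes still measured were called higher and 3 lower. Hsp68 had values of -0.25 and -0.24 with DmSTING dsRNA and -0.44 and -0.40 with scrambled dsRNA in the c-di-GMP samples, against 0.32 and 0.53 with DmSTING dsRNA and 0.44 and 0.24 with scrambled dsRNA in the mock samples, with no overlap. In the unfolded protein response list 3 of 17 genes were called higher and 0 lower (median 0.050), with Sil1 (0.36), a nucleotide exchange factor of the endoplasmic reticulum, the largest. Of 14 peroxide defence and redox genes 4 were called lower and 1 higher (median 0.0094). Keap1, the brake on the oxidative stress factor Cnc, rose (0.56). Catalase (Cat) fell to 68.3% of mock (log2 change -0.55, SE 0.050, adjusted p = 0.000779), and the immune-regulated catalase Irc fell too (-0.44). Among 8 apoptosis genes p53 rose (0.32) and the effector caspase Dcp-1 fell (-0.37), the pro-apoptotic Bcl-2 family gene Debcl fell (-0.18), and the median was -0.11. The 2 probe sets of p53 read 0.48 and 0.17. Of 12 genes of the JNK pathway and TNF, egr, the fly TNF ligand, fell to 64.4% of mock (-0.63, adjusted p = 0.00537), Gadd45 rose (0.43), and the median was -0.036. In the proteasome 3 of 37 subunit genes were called lower and 0 higher (median -0.034), and 2 of the 3, Rpt3R (-0.73) and Rpt4R (-0.31), are second copies of subunit genes. None of 70 respiratory chain and ATP synthase genes was called, with log2 changes from -0.17 to 0.18 and a median of 0.025. At an unadjusted p under 0.05, 5 of them were higher and 3 lower in the limma fit. Counts with 1 sample left out were 1 to 2 higher (fewest without DmSTING c-di-GMP 2 or either DmSTING mock sample) for heat shock proteins and co-chaperones, 1 to 3 higher (fewest without DmSTING mock 2) for unfolded protein response and ER chaperones, 2 to 4 lower (fewest without DmSTING c-di-GMP 2 or either DmSTING mock sample) for peroxide defence and redox control, 1 to 3 lower (fewest without either DmSTING c-di-GMP sample or either DmSTING mock sample) for proteasome subunits, 1 to 2 lower (fewest without either DmSTING c-di-GMP sample, scrambled c-di-GMP 2 or any mock sample) for apoptosis. Leaving out 1 sample ended the call of Hsp110 (without DmSTING c-di-GMP 2 or either DmSTING mock sample, adjusted p up to 0.0779), Keap1 (without either DmSTING mock sample or scrambled mock 2, adjusted p up to 0.0662), Rpt4R (without either DmSTING c-di-GMP sample or either DmSTING mock sample, adjusted p up to 0.0823) and Debcl (in all fits but those without scrambled c-di-GMP 1, adjusted p up to 0.162). Debcl was also lost under quantile normalization, subtracted medians, the replicate block and removal of s_at and x_at probe sets, so that its call held in 4 of 15 alternatives.

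**Figure D4:**
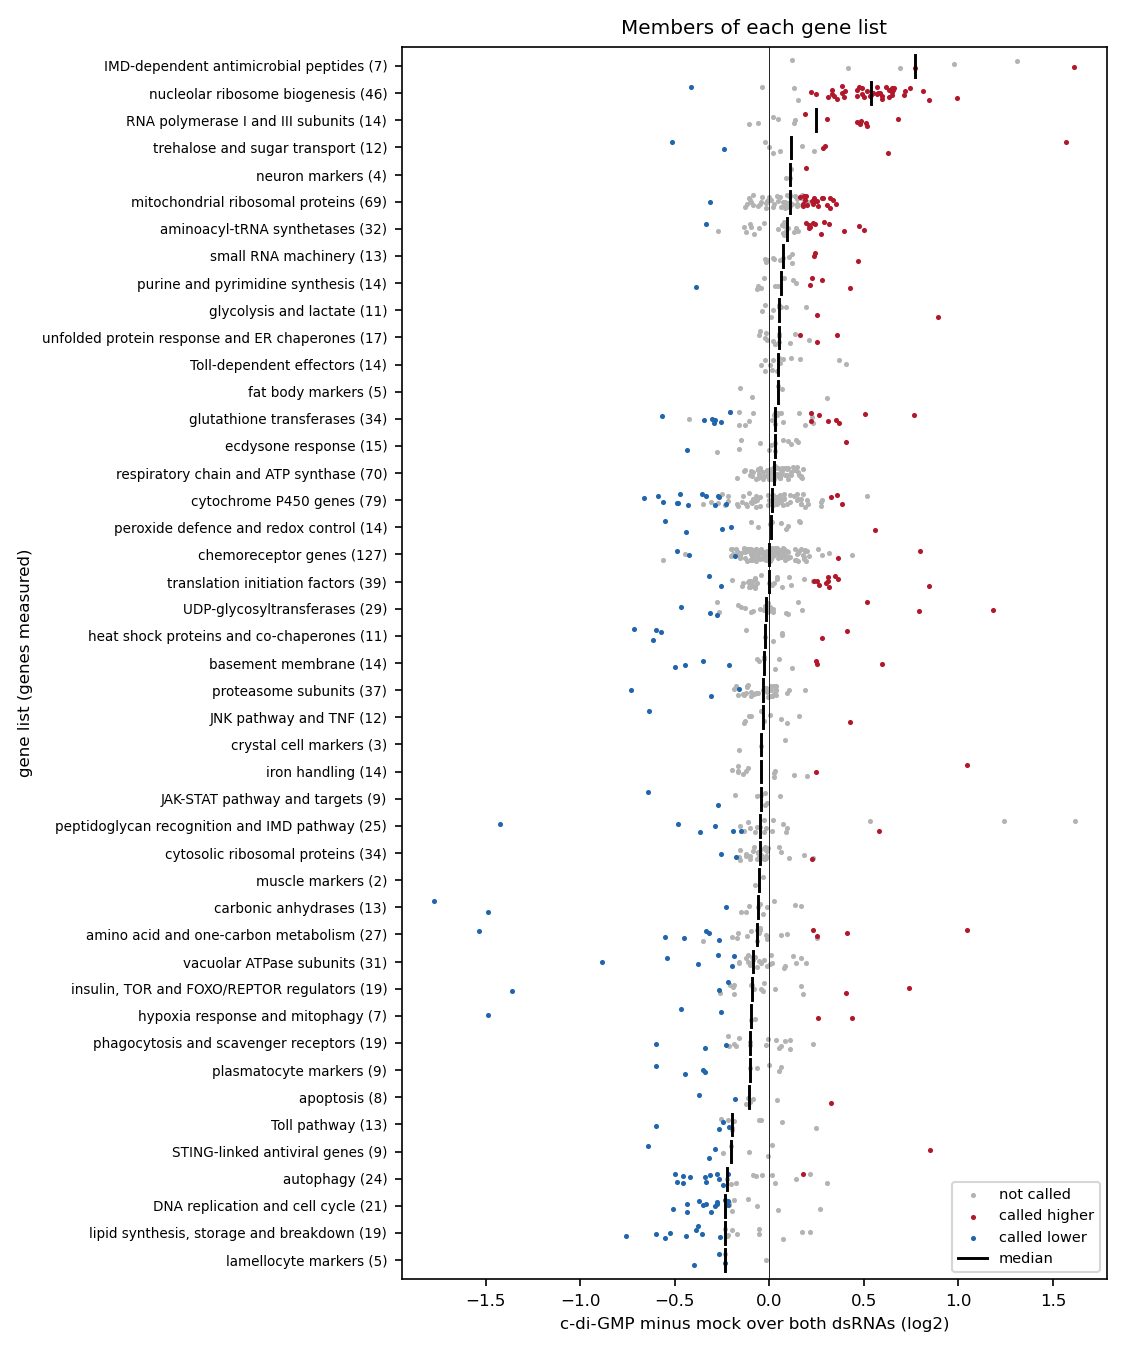
Log2 change, c-di-GMP minus mock over both dsRNAs, of every measured member of the 45 gene lists (points, coloured by call; black bars, list medians; number of genes measured in brackets). Nucleolar ribosome biogenesis lies almost wholly to the right of 0, the lipid, DNA replication and autophagy lists mostly to the left, and most other lists straddle 0.

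Of 7 IMD-dependent antimicrobial peptide genes Mtk and Listericin (0.77) were called higher, a share of 28.6% beside 20.9% over all genes, and the list's median was 0.77. Listericin, which acts against intracellular bacteria, had values of -0.26 and 0.76 in the DmSTING and 1.11 and 1.17 in the scrambled c-di-GMP samples, against -0.0043 and 0.0043 in the DmSTING and -0.20 and -0.10 in the scrambled mock samples. The DmSTING c-di-GMP replicate 1 sample was the lowest of all 8, and the other 3 c-di-GMP samples were the highest. The other members were not called at log2 changes of 1.31 for the cecropin CecB, 0.98 for Defensin (Def), 0.69 for AttD, 0.42 for edin and 0.12 for DptB. CecB had values of -0.61 and 1.47 (DmSTING RNAi) and 1.68 and 1.92 (scrambled RNAi) with c-di-GMP, against -0.30 and -0.42 (DmSTING RNAi) and 0.30 and -0.36 (scrambled RNAi) in mock cells, high in 3 of 4. The median of the 7 was 1.02 without DmSTING c-di-GMP replicate 1 and 0.43 without DmSTING c-di-GMP replicate 2. Without replicate 1 the log2 changes were 1.83 for CecB, 1.52 for Def, 0.96 for AttD, 0.68 for edin and 0.29 for DptB. Without replicate 2 they were 0.79 for CecB, 0.43 for Def, 0.43 for AttD, 0.15 for edin and -0.046 for DptB. Each of these fits leaves 1 array in that group, and replicate 1 was singled out for its low values in such genes. Calls lost with 1 sample left out were those of Listericin (in all fits but those without either DmSTING c-di-GMP sample, adjusted p up to 0.0955). Listericin was also lost under quantile normalization and the additive model, so that its call held in 8 of 16 alternatives. In the DmSTING arm the c-di-GMP samples of these 7 genes did not lie wholly above the mock samples. Of 14 Toll-dependent effectors none was called by limma (median 0.046), and at an unadjusted p under 0.05 there were 2 higher and 0 lower. Drosomycin (Drs), an antifungal peptide of this list, had values of -1.34 and 0.64 with DmSTING dsRNA and 0.64 and 1.07 with scrambled dsRNA in the c-di-GMP samples, against -0.029 and 0.029 with DmSTING dsRNA and -0.43 and -0.030 with scrambled dsRNA in the mock samples (0.37, adjusted p = 0.561). Without DmSTING c-di-GMP replicate 1 the log2 change of Drs was 0.86. Its lowest and highest samples were both c-di-GMP samples.

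Of 25 peptidoglycan recognition and IMD genes 1 was called higher and 6 lower (median -0.048), a share of 28.0% against 20.9% over all genes. The median of these 25 was -0.054 without DmSTING c-di-GMP replicate 1 and -0.096 without DmSTING c-di-GMP replicate 2. Dnr1, a ubiquitin ligase that restrains the IMD caspase Dredd, had values of -0.63 and -0.68 with DmSTING dsRNA and -0.77 and -0.60 with scrambled dsRNA in the c-di-GMP samples, against 0.86 and 0.79 with DmSTING dsRNA and 0.78 and 0.60 with scrambled dsRNA in the mock samples. It fell to 37.2% of mock (log2 change -1.43, SE 0.064, adjusted p = 0.000177), evenly in both arms. POSH, a ubiquitin ligase that acts on the kinase Tak1, was the 1 gene that rose (0.58). Of 10 signalling members 4 fell, Diap2 (-0.48), IKKbeta (-0.29), imd (-0.19) and key (-0.15), and the deubiquitinase CYLD fell too (-0.36). None of the 7 recognition genes was called. PGRP-LB, which degrades peptidoglycan, had values of -0.79 and 1.85 in the DmSTING and 2.52 and 2.67 in the scrambled c-di-GMP samples, against -0.048 and -0.11 in the DmSTING and 0.048 and -0.11 in the scrambled mock samples, and pirk, a feedback inhibitor of the pathway, had values of -0.53 and 1.55 (DmSTING RNAi) and 1.59 and 1.87 (scrambled RNAi) with c-di-GMP, against -0.21 and -0.080 (DmSTING RNAi) and 0.080 and -0.27 (scrambled RNAi) in mock cells. For both the same 3 c-di-GMP samples were high as for Mtk, with log2 changes of 1.62 (adjusted p = 0.0582) and 1.24 (adjusted p = 0.0663). Without DmSTING c-di-GMP replicate 1 PGRP-LB and pirk had log2 changes of 2.28 and 1.76. They, Rel and the antimicrobial genes not called were chosen for naming after their values were seen. Relish (Rel) had values of -0.82 and 0.065 in the DmSTING and 0.28 and 0.43 in the scrambled c-di-GMP samples, against -0.069 and -0.019 in the DmSTING and 0.019 and -0.049 in the scrambled mock samples, with DmSTING c-di-GMP replicate 1 far below every other sample. Its log2 change was 0.016 with that library (adjusted p = 0.964) and 0.24 without it. In the STING-linked list 1 of 9 genes was called higher and 3 lower (44.4% called, median -0.20). Nazo, an antiviral gene downstream of Sting, had values of 0.083 and 0.68 with DmSTING dsRNA and 0.72 and 0.95 with scrambled dsRNA in the c-di-GMP samples, against -0.29 and -0.30 with DmSTING dsRNA and -0.083 and -0.30 with scrambled dsRNA in the mock samples. Its groups did not overlap, though DmSTING c-di-GMP replicate 1 was close to the mock samples, and the log2 change was 0.85 (adjusted p = 0.00501) and larger without that library. Sting itself was lower with c-di-GMP within each arm, at -0.33 with DmSTING dsRNA and -0.31 with scrambled dsRNA, and -0.32 over both (SE 0.051, adjusted p = 0.00539). vir-1, a gene raised by virus infection, fell (-0.64). Among 13 Toll pathway genes 4 were called lower and 0 higher (30.8% called, median -0.20), with the protease grass, which acts upstream of the receptor, at -0.60. In the JAK-STAT list vir-1 and the cytokine upd2 (-0.27) were the 2 of 9 genes called lower, none was higher, and the median was -0.045. That share of 22.2% was near the 20.9% over all genes. With 1 sample left out at a time, the counts were 1 to 5 lower (fewest without either DmSTING mock sample) for Toll pathway, 1 to 2 lower (fewest without DmSTING c-di-GMP 2, DmSTING mock 2, scrambled c-di-GMP 1 or either scrambled mock sample) for JAK-STAT pathway and targets. Not called with 1 sample left out were upd2 (without DmSTING c-di-GMP 2, DmSTING mock 2, scrambled c-di-GMP 1 or either scrambled mock sample, adjusted p up to 0.0998), imd (in all fits but those without scrambled c-di-GMP 2, adjusted p up to 0.146) and key (in each of the 8 fits, adjusted p up to 0.182). key was also lost under quantile normalization, subtracted medians, the replicate block, robust moderation, the probe set with the largest SD and removal of s_at and x_at probe sets, so that its call held in 1 of 15 alternatives.

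Detoxification families held called members in both directions, though not all were called more often than genes at large. Of 29 UDP-glycosyltransferases 3 were called higher and 3 lower (median -0.020), 20.7% in all, near the 20.9% over all genes. Ugt302K1 (1.18) and Ugt35C1 (0.79) were up and Ugt35A1 (-0.47) down. Ugt35C1 had values of 0.52 and 0.53 (DmSTING RNAi) and 0.23 and 0.63 (scrambled RNAi) with c-di-GMP, against -0.29 and -0.31 (DmSTING RNAi) and -0.44 and -0.23 (scrambled RNAi) in mock cells. Among 34 glutathione transferases, which join glutathione to reactive compounds, 8 were called higher and 7 lower (44.1% called, median 0.030). Other settings with all 8 samples gave 4 lower under quantile normalization, 7 under the filter on variation and 5 under the rest. GstD2 (0.77) and GstD5 (0.50) rose most and GstT4 (-0.57) fell most. Of 79 cytochrome P450 genes 3 were called higher and 13 lower (median 0.013), 20.3% in all, near the 20.9% over all genes. Cyp12a4 (-0.66) and Cyp12e1 (-0.59), of the mitochondrial clade, were the lowest. Of 13 carbonic anhydrases 3 were lower and 0 higher (23.1% called, median -0.062). Chemoreceptor genes, most of which are known from sensory neurons, gave 2 higher and 3 lower of 127 (median -0.00014), 3.94%. The gustatory receptor gene Gr94a rose 1.74-fold, with values of 0.54 and 0.72 in the DmSTING and 0.20 and 0.60 in the scrambled c-di-GMP samples, against -0.27 and -0.20 in the DmSTING and -0.31 and -0.35 in the scrambled mock samples. The fits that left out 1 sample each gave 1 to 6 lower (fewest without DmSTING mock 2 and most without scrambled c-di-GMP 2) for UDP-glycosyltransferases, 4 to 8 higher (fewest without either DmSTING mock sample) and 2 to 6 lower (fewest without DmSTING c-di-GMP 2 or DmSTING mock 2) for glutathione transferases, 2 to 5 higher (most without either scrambled c-di-GMP sample) and 7 to 13 lower (fewest without either DmSTING mock sample) for cytochrome P450 genes, 2 to 8 higher (most without scrambled c-di-GMP 2) and 1 to 4 lower (fewest without DmSTING c-di-GMP 1, either DmSTING mock sample or scrambled mock 2) for chemoreceptor genes.

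Of 9 plasmatocyte markers, the macrophage-like class that S2 cells resemble, 4 were called lower and 0 higher (median -0.10), a share of 44.4% beside 20.9% over all genes. The phagocytosis receptor NimC1 had values of -0.43 and -0.052 with DmSTING dsRNA and -0.38 and -0.54 with scrambled dsRNA in the c-di-GMP samples, against 0.32 and 0.32 with DmSTING dsRNA and 0.052 and 0.32 with scrambled dsRNA in the mock samples, and fell to 65.9% of mock (log2 change -0.60, SE 0.100, adjusted p = 0.00624), while Hml had a log2 change of 0.063 and srp of 0.00069, neither called. Of 5 lamellocyte markers 3 were called lower, PPO3 (-0.40) among them (60.0%, median -0.24). None of 3 crystal cell markers (median -0.043), 5 fat body markers (0.046) or 2 muscle markers (-0.054) was called, and of 4 neuron markers (median 0.11) elav was called higher at 0.19. Of 19 phagocytosis and scavenger receptor genes 3 were called lower and 0 higher (15.8% called, median -0.10), namely NimC1, the scavenger receptor crq (-0.34) and drpr (-0.23). Basement membrane genes gave 3 higher and 4 lower of 14, which is 50% of the list (median -0.027). SPARC, a collagen-binding protein, had values of 0.073 and -0.22 in the DmSTING and -0.78 and -0.81 in the scrambled c-di-GMP samples, against 0.11 and 0.15 in the DmSTING and -0.043 and 0.043 in the scrambled mock samples, and only the scrambled c-di-GMP samples were clearly low. The log2 changes were -0.21 with DmSTING dsRNA and -0.79 with scrambled dsRNA for SPARC and -0.16 with DmSTING dsRNA and -0.74 with scrambled dsRNA for the collagen IV chain vkg. Papilin (Ppn) rose (0.59). Counts with 1 sample left out were 2 to 4 lower (fewest without either DmSTING mock sample or scrambled mock 2) for plasmatocyte markers, 1 to 4 lower (fewest without DmSTING c-di-GMP 1, DmSTING mock 1, scrambled c-di-GMP 1 or either scrambled mock sample) for lamellocyte markers, 1 to 4 lower (fewest without DmSTING mock 1) for phagocytosis and scavenger receptors, 0 to 3 higher (fewest without either DmSTING mock sample) and 1 to 4 lower (fewest without DmSTING mock 2) for basement membrane. Leaving out 1 sample ended the call of elav (in all fits but those without scrambled c-di-GMP 1, adjusted p up to 0.181), crq (without DmSTING mock 1 or scrambled mock 2, adjusted p up to 0.067), drpr (without either DmSTING mock sample or scrambled mock 1, adjusted p up to 0.0821), vkg (without DmSTING c-di-GMP 2, either DmSTING mock sample or scrambled mock 2, adjusted p up to 0.0719) and Ppn (without DmSTING c-di-GMP 2 or either DmSTING mock sample, adjusted p up to 0.0647). elav was also lost under the replicate block, the probe set with the largest SD and removal of s_at and x_at probe sets, so that its call held in 5 of 15 alternatives.

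Among 14 iron handling genes Tsf1 and frataxin (fh, 0.24) were called higher and none lower (14.3% called, median -0.044). Ferritin chains Fer1HCH (-0.14) and Fer2LCH (-0.11) were not called. Of 13 small RNA machinery genes vig (0.47), vig2 (0.24) and Fmr1 (0.24) were called higher and none lower (median 0.074), a share of 23.1% beside 20.9% over all genes. All 3 rest on probe sets with IDs ending in s_at or x_at, and with such probe sets left out 0 of the 8 genes still measured were called by limma, with 0 higher and 0 lower at an unadjusted p under 0.05. The dicer of the siRNA pathway, Dcr-2, had a log2 change of 0.12. Of 15 ecdysone response genes ImpL2 was called higher and MsrA lower (-0.43), which is 13.3% called, with a median of 0.028. With 1 sample left out at a time, the counts were 0 to 2 higher (fewest without either DmSTING mock sample or scrambled mock 1) for iron handling, 1 to 3 higher (fewest without either DmSTING mock sample) for small RNA machinery. Calls lost with 1 sample left out were those of Tsf1 (without any mock sample, adjusted p up to 0.0737), fh (without DmSTING c-di-GMP 2, either DmSTING mock sample or scrambled mock 1, adjusted p up to 0.0934), vig2 (without either DmSTING mock sample or scrambled mock 1, adjusted p up to 0.0789), Fmr1 (without DmSTING c-di-GMP 2, either DmSTING mock sample or scrambled mock 2, adjusted p up to 0.0972) and MsrA (in all fits but those without scrambled c-di-GMP 2 or scrambled mock 2, adjusted p up to 0.155). MsrA was also lost under quantile normalization, subtracted medians, the additive model, the replicate block, robust moderation, the probe set with the largest SD and removal of s_at and x_at probe sets, so that its call held in 3 of 16 alternatives.

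Whether the response was common to both arms was examined gene by gene. The arms share no samples, but both tests used 1 spread per gene estimated from all 8 samples. Calls in the 2 arms are therefore not independent. Within the DmSTING arm 819 genes were called (7.44%) and within the scrambled arm 1329 (12.1%). Of these, 657 were called in both arms in the same direction, which is 80.2% of the DmSTING arm's calls and 49.4% of the scrambled arm's, and 1 was called in opposite directions. Across the 11009 genes the changes in the 2 arms had a Pearson correlation of 0.73 and a Spearman correlation of 0.63, where genes are not independent replicates. The SD of the change over genes was 0.217 in the DmSTING arm and 0.260 in the scrambled arm. Of the 2303 genes called over both arms, 2298 changed in the same direction in each arm, as did 71.9% of all genes, and 883 were called in neither arm alone. In both arms the c-di-GMP samples lay wholly above the mock samples for 1386 genes (12.6%) and wholly below them for 2216 (20.1%), and 2208 of the 2303 called genes were among these. The 2303 genes were called on the average of both arms' changes, which favours agreement between the arms. Their counts of 2298 and 2208 therefore do not test whether the response was common. Genes with nearly equal changes included Tret1-1 (1.47 with DmSTING dsRNA and 1.67 with scrambled dsRNA), BNIP3 (-1.52 with DmSTING dsRNA and -1.45 with scrambled dsRNA) and dnr1 (-1.48 with DmSTING dsRNA and -1.37 with scrambled dsRNA). Mtk changed by 0.81 with DmSTING dsRNA and 2.42 with scrambled dsRNA, and CG8519 by 0.83 with DmSTING dsRNA and 2.65 with scrambled dsRNA. The test of the difference between the arms called 0 genes with limma. At an unadjusted p under 0.05 it gave 540 genes (4.91%), and the smallest adjusted p was 0.988. For Mtk the difference, DmSTING minus scrambled, was -1.61 in log2 (unadjusted p = 0.0333, limma). A difference between the arms was thus not shown, and with 2 samples a group this does not show that the arms responded alike. Without DmSTING c-di-GMP replicate 1 limma called 0 genes for the difference, with 529 at an unadjusted p under 0.05 and a smallest adjusted p of 0.984. Without DmSTING c-di-GMP replicate 2, 12 genes were called for the difference, all lower in the DmSTING arm, with that arm's c-di-GMP response resting on replicate 1 alone. They were PGRP-LB, Listericin, Mtk, Tsf1, CG32373, PGRP-SB1, mspo, Def, yin, PGRP-LF, AttD and edin.

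**Figure D5:**
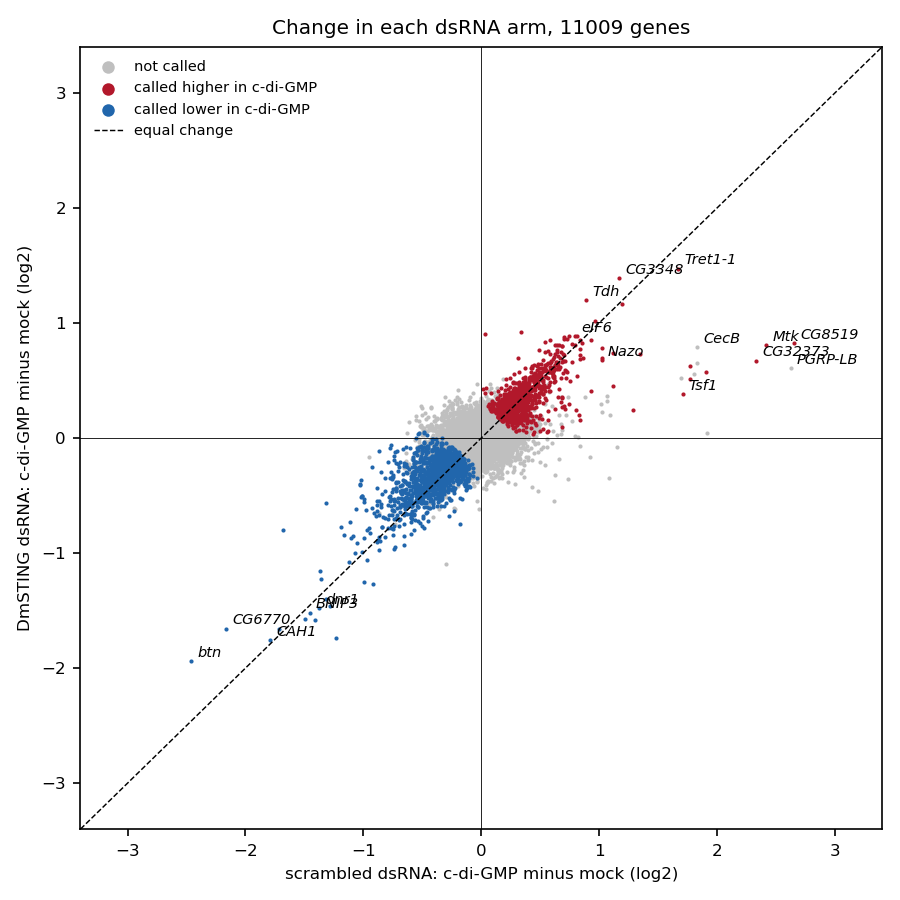
Change of each of 11009 genes in the DmSTING arm (vertical) and in the scrambled arm (horizontal), c-di-GMP minus mock in log2, coloured by call over both arms, with the dashed line marking equal change. Tret1-1 lies near the line at the upper right and btn and CAH1 at the lower left, while Mtk, CG8519, CG32373 and Tsf1 lie below it on the right.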

How the data were processed

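Total RNA from 8 samples of S2 cells was labelled with an Affymetrix 3' IVT kit and hybridised to 1-colour arrays, per the labels' protocols. The authors deposited a table of log2 values per probe set, with the median of the 8 samples at 0 for every probe set, as the values themselves show. The base of the log is not stated and was taken as 2, and the sources used here name no background correction, summarisation or software. Of 16718 probe sets, 12339 named 1 gene in the platform annotation, 367 named several, 3888 named none and 124 were controls. The 12339 were averaged to 11009 genes (920 with more than 1 probe set), and 67 gene IDs were not in the RefSeq table used to check names.

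A limma model (version 3.58.1, R 4.3.3) with 4 group means and moderated variances gave the average of both arms' changes, each arm's change and their difference, with 4 residual degrees of freedom. P-values were adjusted over 11009 genes by the Benjamini-Hochberg method and called under 0.05. The fit was tested on simulated data. Precision is limited by the number of arrays, and no depth applies. The genes named are the 15 called genes with the largest increases and 15 with the largest decreases, the 5 in each direction with the largest moderated t, up to 4 called genes of each of 45 gene lists (or 2 where none was called), Sting, and genes called for the difference, and further genes, among them those of the closing families, were chosen as examples after their values were seen. The comparison, the lists and their members were chosen with earlier results of these data known, so counts over a list describe it. The alternatives tried were quantile normalization, subtracted column medians, an additive model, a replicate block, robust moderation, 1 probe set per gene, a filter on variation, each sample left out and, chosen after seeing the data, removal of probe sets ending in s_at or x_at. A search of promoters for motifs was planned and not run, since no sequences were at hand. Same-numbered replicates did not deviate together throughout (correlations of 0.0093 to 0.289 between groups), so the numbers were not taken as pairs. The largest, 0.289, was between the 2 c-di-GMP groups. The second principal component, with 15.4% of the variance, placed both c-di-GMP replicate 1 samples low (-11.4 scrambled, -6.55 DmSTING). Both c-di-GMP replicate 2 samples lay high on it (11.8 scrambled, 6.49 DmSTING), and the mock samples between (-1.92 to 0.784). The 4 c-di-GMP samples may therefore not be independent, which was not tested.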

Additional observations from a re-analysis of the deposited data

Results flagged for a closer look

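In 10 of 324 groups of 4 samples tested (3.09%), 1 sample lay far from the other 3 by Dixon's criterion. Chance alone meets it in about 1 of 20 groups drawn from 1 population. Each group of 4 here pooled the 2 dsRNAs, so the 3.09% cannot be set against that rate. Scrambled mock replicate 1 was the sample in 7 of them. It was the highest mock sample for CG6770 (1.22), Keap1 (0.020) and Nazo (-0.083) and the lowest for eIF6 (-0.49), Diap2 (0.11), NimC1 (0.052) and Pink1 (0.12). DmSTING mock replicate 2 was the lowest mock sample for elav (-0.21), and DmSTING mock replicate 1 for Gr92a (-0.25). Scrambled c-di-GMP replicate 2 was the lowest c-di-GMP sample for Rpt3R (-0.60). For all these genes but Keap1 the c-di-GMP and mock samples did not overlap.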

How the results depend on the processing

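The called genes numbered 2303, and between 2005 and 2432 under quantile normalization, subtracted medians, an additive model, robust moderation, 1 probe set per gene and a filter on variation, which kept 92.7% to 96.6% of the calls tested. Quantile normalization gave 1011 higher and 1359 lower (42.7% higher) and subtracted medians 979 and 1294 (43.1%), against 842 and 1461 (36.6%). With each sample left out there were 1161 to 2576 called, 422 to 924 higher, 739 to 1701 lower, and 0 to 12 for the difference between the arms. Without DmSTING mock replicate 1 or 2, 51.1% and 50.2% of the calls were kept. Fewer samples leave fewer degrees of freedom, and whether more lies behind these counts was not tested. A lone remaining sample was assumed to vary like the other groups. With the replicate number as a block 2378 genes were called and 94.3% of the calls kept. The same-numbered samples are not taken as pairs. Of 152 called genes named by the rule, none changed direction. The calls lost were 25 and 30 without scrambled mock replicate 1 and 2, 42 without either DmSTING mock sample, 17 and 21 without DmSTING c-di-GMP replicate 1 and 2, 12 and 5 without scrambled c-di-GMP replicate 1 and 2, and at most 7 under another setting. With probe sets ending in s_at or x_at left out, chosen after seeing the data, 1903 genes were called (700 higher, 1203 lower). Of the 152 called genes named by the rule, 122 were then still measured, and 119 kept their call. Genes measured only by such probe sets included Hsp60A, Hsp110, mdy, PGRP-LB, RIOK1, Tom70 and Uhg3. Of the 258 called genes whose groups overlapped, 103 no longer did without scrambled mock replicate 1 and 99 without DmSTING c-di-GMP replicate 1. The median log2 changes of the nucleolar, polymerase, lipid, autophagy, DNA replication and vacuolar ATPase lists kept their sign under all 16 alternatives, while medians near 0 did not, such as those of cytochrome P450 genes (-0.077 to 0.032) and translation initiation factors (-0.059 to 0.23).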

Other observations

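A further 4 families, chosen by symbol after their values were seen and given without a test, had calls only among decreases. Over all genes 13.3% were called lower and 7.65% higher. Of the Rab GTPases, which direct vesicles between membranes, 0 of 16 were called higher and 8 lower, with a median log2 change of -0.19. Rab27 (-0.78), Rab9 (-0.56), Rab39 (-0.52) and Rab23 (-0.51) fell most. Among sorting nexins, which shape endosomal tubules, 0 of 7 were called higher and 4 lower, with a median log2 change of -0.20, led by Snx17 (-0.62). For the imaginal disc growth factors, secreted chitinase-like proteins, 0 of 6 were called higher and 5 lower, with a median log2 change of -0.31. Idgf1 had values of -0.52 and -0.54 with DmSTING dsRNA and -0.54 and -0.40 with scrambled dsRNA in the c-di-GMP samples, against 0.54 and 0.52 with DmSTING dsRNA and 0.40 and 0.59 with scrambled dsRNA in the mock samples, wholly apart, and fell to 49.5% of mock. Of the serpins, inhibitors of proteases, 0 of 23 were called higher and 7 lower, with a median log2 change of -0.12, with Spn42De (-0.63) and Spn55B (-0.59) lowest.

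Both measured snoRNA host genes, whose introns carry small nucleolar RNAs, were called higher, Uhg3 at 0.73 and Uhg4 at 0.53. Of the Tim and Tom translocases, which bring proteins into mitochondria, 7 of 12 were called higher and 0 lower, with a median log2 change of 0.21, and Tim9a (0.45) and Tom70 (0.44) changed most. The chaperonin subunits CCT1 to CCT8 gave 1 called higher of 8 and a median of 0.061, beside 7.65% called higher over all genes. Odorant-binding proteins gave 1 higher and 1 lower of 39, beside 20.9% called in either direction. Among single genes the ribosome assembly kinase RIOK1 (0.84) rose, while the folliculin homologue BHD (-0.64), Pdcd4 (-0.88), unk (-0.92), Ypel (-1.10) and the gluconeogenic enzyme Pepck1 (-0.73) fell.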
